A study of Mus musculus with 15 samples.

Results

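The genes described here encode telomerase and the ribonucleoprotein that is built around its RNA. The 8 genes were chosen by name: Terc, Tert, Dkc1, Nop10, Nhp2, Gar1, Wrap53 and Naf1. All 8 were found among the 45706 genes of the count table, by matching symbols to Ensembl identifiers with GENCODE vM21. A filter on low counts (edgeR's filterByExpr) kept 18983 genes for testing, and with them 7 of the 8, all but Terc.

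RNA was sequenced from lineage-negative bone marrow (BM) cells, the immature fraction left after magnetic removal of cells with markers of mature lineages, taken from the femora of secondary recipient mice. The 15 libraries comprise 3 of wildtype (WT) donors, 4 of Puma-/- donors, 4 of G3 mTerc-/-Puma+/+ donors and 4 labelled G3 mTerc-/-Puma-/-, where G3 is generation 3 of mice bred without the telomerase RNA and Puma is the gene of a pro-apoptotic BCL2 family protein. Donors were 8 to 12 weeks old, CD45.2 and C57BL/6J in all 4 genotypes, and their LSK cells (lineage-negative, Sca1- and cKit-positive stem and progenitor cells) went through 2 rounds of transplantation into lethally irradiated CD45.1 recipients, with CD45.2+ LSK cells taken for the second. Recipients were analysed 16 weeks after the secondary transplantation. For these RNA samples the sources name the lineage depletion and no selection of donor cells, so host cells may be part of each.

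Totals ran from 102790519 to 158367059 counts per library. Levels are given as CPM, the counts scaled to a common library total with edgeR's TMM factors, and means and tests used 14 libraries. Replicate 2 of those labelled G3 mTerc-/-Puma-/-, which the study's heatmaps do not draw, stood apart: its erythroid markers summed to 1069 CPM against 18.4 to 175 CPM in the other 14 libraries, and Flt3, a receptor of early progenitors, was at 3.45 CPM against 57.0 to 186 CPM. Its values are given separately. Of the 6 progenitor markers, Mpo was at 6940 to 13024 CPM and Kit at 114 to 164 CPM over the 15 libraries. Cd34 was at 86.1 to 229 CPM, Gata2 at 76.8 to 198, Meis1 at 11.8 to 29.9 and Flt3 at 3.45 to 186 CPM. Markers of other cell types were also present in the 14 libraries. The 5 B lymphoid markers summed to 6.42 to 69.0 CPM, and the 5 T and NK markers to 16.3 to 129 CPM. Sums of 5 neutrophil markers ran from 309 to 2918 CPM, and those of 4 monocyte and macrophage markers from 1055 to 2097 CPM. They were 517 to 1571 CPM over 3 mast cell and basophil markers and 291 to 1712 CPM over 3 stroma and endothelium markers. Bbc3, the gene of PUMA, was at 5.02 to 6.80 CPM in the Puma-/- libraries but at 13.5 to 17.0 CPM in the 3 libraries labelled G3 mTerc-/-Puma-/-, inside the 9.67 to 23.5 CPM of WT, so this measure goes against the Puma part of that label. These libraries are called "labelled G3 mTerc-/-Puma-/-" throughout, and each direction drawn from them rests on the label.

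Telomerase adds telomeric repeats to chromosome ends. The reverse transcriptase TERT copies a short template within the RNA TERC, and TERC is held, through its H/ACA domain, by dyskerin (Dkc1) with NOP10, NHP2 and GAR1. The same proteins sit on the H/ACA small nucleolar RNAs that guide pseudouridylation of ribosomal RNA. NAF1 takes the place of GAR1 while the particle is assembled, and the WRAP53 protein (TCAB1) carries the finished particle to Cajal bodies. Blood-forming stem and progenitor cells are among the adult cells with telomerase activity. Mutations of several of these genes, TERC, TERT and DKC1 among them, underlie human telomere biology disorders with BM failure.

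The sequence of Terc, the targeted gene, is shown because its counts check the mTerc genotype of every library. The gene is a single exon of 423 bases at chr3:96414437-96414859 on the minus strand of GRCm38, with a GC content of 67.1%. The first and the last bases of its GENCODE vM21 transcript are printed 5′ to 3′ in DNA letters. The capitals in the first stretch, bases 28 to 36, are the template for the telomeric repeat, and those in the other, bases 418 to 420, are the ACA box that stands 3 bases before the 3′ end and gives the H/ACA class its name.
Terc bases 1 to 120: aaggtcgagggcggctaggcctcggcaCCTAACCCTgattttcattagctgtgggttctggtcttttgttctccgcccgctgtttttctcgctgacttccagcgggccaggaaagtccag
Terc bases 364 to 423: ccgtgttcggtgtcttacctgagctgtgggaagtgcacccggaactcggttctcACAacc

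Terc was close to absent from the mTerc-/- libraries. In WT, replicates 1 to 3 held 7, 17 and 10 counts. In Puma-/-, replicates 1 to 4 held 5, 4, 9 and 11 counts. Every one of these 7 libraries was above the floor of 3 counts, about the highest mean that an observed count of 0 allows. In G3 mTerc-/-Puma+/+ the 4 libraries held 0, 1, 1 and 1 counts, and in those labelled G3 mTerc-/-Puma-/- they held 1, 0, 1 and 0 counts, replicate 2 included. None of these 8 libraries exceeded the floor, and none overlapped the mTerc+/+ libraries, so the Terc counts follow the mTerc part of each label.

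Summed over libraries, Terc had 63 counts in the 7 mTerc+/+ libraries (0.0810 CPM of the raw totals) and 5 counts in the 8 mTerc-/- libraries (0.00512 CPM), a ratio of 15.8 with an exact 95% interval of 6.43 to 50.4 that covers counting error only. The mean level was 0.0817 CPM in 7 mTerc+/+ libraries and 0.00607 CPM in 7 mTerc-/- libraries of the 14 (exact two-sided permutation test within each Puma background, p = 0.000816, the smallest that its 1225 splits allow). Between Puma-/- and WT, which both carry mTerc, the levels of 0.0643 ± 0.0308 CPM (SD, n = 4) and 0.105 ± 0.0467 CPM (n = 3) overlapped. The libraries were made from poly(A)-selected RNA, and mature Terc lacks a long poly(A) tail, so these counts do not measure the amount of Terc in the cells.

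**Figure D1:**
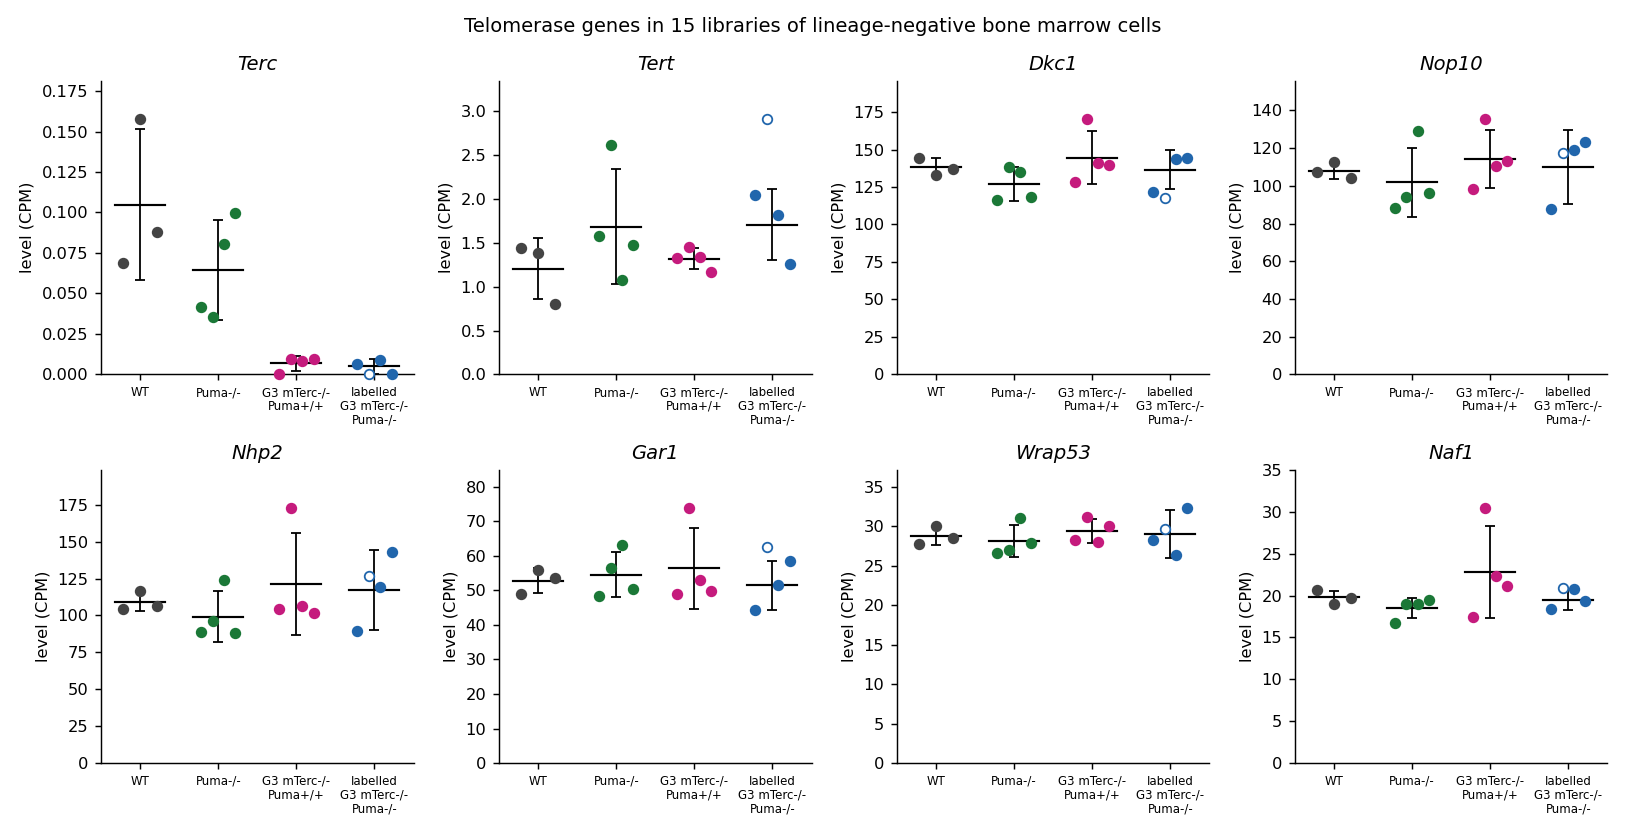
Level of each of the 8 genes in CPM (y axes from 0, different for each gene) by genotype, with a point for each library, a line at the mean and bars of 1 SD; the open point is replicate 2 of those labelled G3 mTerc-/-Puma-/-, which is not in the mean. Terc is at 0 or 1 count in the mTerc-/- libraries, while the 7 protein-coding genes overlap between all genotypes.

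Per length, the members formed a steep order. On the scale of CPM per kb of exon, Nop10 averaged 97.8 and Nhp2 97.3 over the 14 libraries, Dkc1 33.1 and Gar1 31.5, Wrap53 13.97, Naf1 6.54 and Tert 0.259. The 4 proteins of the core particle thus lay among the more abundant genes, between the 90.8th and the 97.5th percentile of the genes tested, and Tert at the 23.3rd percentile. In each of the 15 libraries Nhp2 exceeded Dkc1, by 2.498 to 3.87 times, Gar1 exceeded Wrap53, Wrap53 exceeded Naf1, and Naf1 exceeded Tert by 13.3 to 45.5 times. Dkc1 exceeded Tert by a median of 135 times per length. Neighbours at the top were not separated: Nop10 was above Nhp2 in 10 of 15 libraries and Dkc1 above Gar1 in 9 of 15. That order depends on the length used, since with the length of each gene's first-numbered transcript Nhp2 (135 CPM per kb) was above Nop10 (97.8 CPM per kb) in all 15 libraries.

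**Figure D2:**
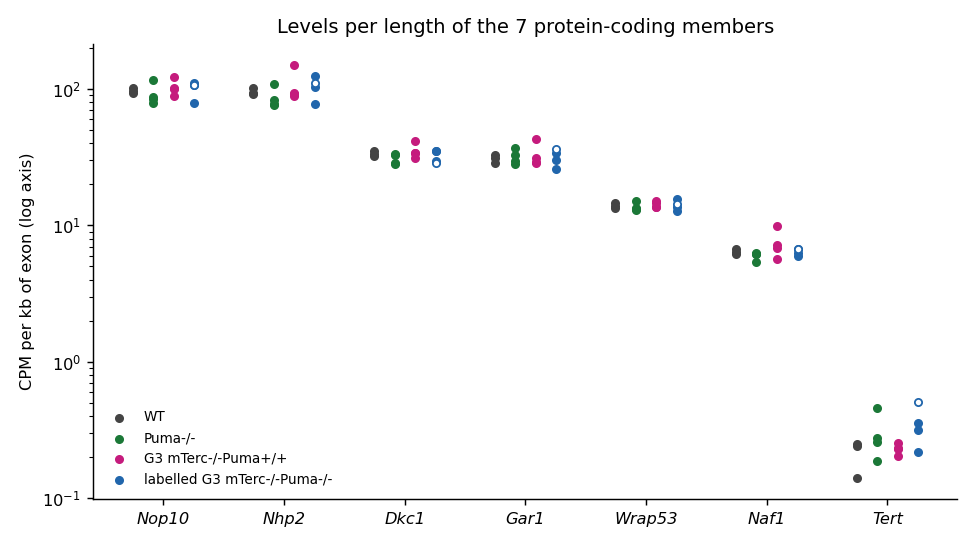
Level in CPM per kb of exon (log axis) of the 7 protein-coding members in each of the 15 libraries, coloured by genotype, with the library outside the fit as an open point. The fall from Nop10 and Nhp2 near 97 CPM per kb to Tert at 0.259 CPM per kb is shared by all genotypes. The order of Nop10 with Nhp2, and that of Dkc1 with Gar1, differs between libraries.

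Tert, the catalytic subunit, was the lowest and the most variable of the tested members. It lies on chromosome 13 of GRCm38 from 73626911 to 73649843 on the plus strand, with 5730 exon bases. In WT it was at 1.44, 1.38 and 0.803 CPM in replicates 1 to 3. In Puma-/- it was at 1.57, 2.61, 1.08 and 1.48 CPM in replicates 1 to 4. In 3 of 4 Puma-/- libraries Tert was above every WT library, and replicate 3 lay inside the WT range. In G3 mTerc-/-Puma+/+ it was at 1.32, 1.45, 1.34 and 1.16 CPM. In the libraries labelled G3 mTerc-/-Puma-/- it was at 2.04, 1.82 and 1.26 CPM in replicates 1, 3 and 4, and at 2.91 CPM in replicate 2. These values rest on 91 to 338 counts per library, and each genotype overlapped every other.

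The highest Tert level exceeded the lowest by 3.26 times over the 14 libraries, and the biological coefficient of variation of Tert was 0.285, at the 72.3rd percentile of the genes tested. WT averaged 1.21 ± 0.351 CPM (SD, n = 3) and Puma-/- 1.69 ± 0.654 CPM (n = 4). G3 mTerc-/-Puma+/+ averaged 1.32 ± 0.119 CPM (n = 4), and the 3 tested libraries labelled G3 mTerc-/-Puma-/- averaged 1.71 ± 0.405 CPM. Against WT, Tert differed on the log2 scale by 0.48 in Puma-/- (SE 0.292) with edgeR's quasi-likelihood adjusted p = 0.596, and by 0.50 in those labelled G3 mTerc-/-Puma-/- (SE 0.310) with an adjusted p = 0.9998. Single libraries moved both values up and down. The first was 0.19 without Puma-/- replicate 2 and 0.26 without WT replicate 3, but 0.63 without Puma-/- replicate 3. The second was 0.28 without WT replicate 3, but 0.68 without replicate 4 labelled G3 mTerc-/-Puma-/- and 0.73 with all 15 libraries. In the fit of 14 libraries the 95% interval of the second, from -0.16 to 1.17, includes 0 and reaches past a log2 difference of 1. Markers of several mature cell types also differed between these libraries. The 5 T and NK cell markers summed to 120 CPM in Puma-/- replicate 2 and to 112 and 98.3 CPM in replicates 1 and 3 labelled G3 mTerc-/-Puma-/-, but also to 129 CPM in G3 mTerc-/-Puma+/+ replicate 1, where Tert was at 1.32 CPM. The summed ranges were 26.6 to 61.5 CPM in WT, 29.2 to 120 in Puma-/-, 16.3 to 129 in G3 mTerc-/-Puma+/+ and 42.1 to 112 in the 3 labelled G3 mTerc-/-Puma-/-, with none of the 5 genes at 0 counts in any library. The 5 B lymphoid markers summed to 17.2 to 22.6 CPM in WT, 24.9 to 31.6 in Puma-/-, 6.42 to 15.3 in G3 mTerc-/-Puma+/+ and 24.9 to 69.0 in the 3 labelled G3 mTerc-/-Puma-/-. In these B lymphoid sums Puma-/- and those labelled G3 mTerc-/-Puma-/- lay wholly above WT, and G3 mTerc-/-Puma+/+ wholly below it. Taken singly, 5.49% of all genes tested lay wholly above WT in Puma-/- and 5.33% in those labelled G3 mTerc-/-Puma-/-. In G3 mTerc-/-Puma+/+, 2.12% lay wholly below it. By library, the highest sum was in replicate 3 labelled G3 mTerc-/-Puma-/-, with Tert at 1.82 CPM. Puma-/- replicate 2, with Tert at 2.61 CPM, had a sum of 25.9 CPM. For those labelled G3 mTerc-/-Puma-/- against WT, the median log2 difference was 1.44 over B lymphoid, 1.56 over neutrophil and 1.204 over erythroid markers. It was 1.09 over stroma and endothelium, 0.94 over T and NK cell and 0.097 over monocyte and macrophage markers. Over progenitor markers it was -0.15 and over mast and basophil markers -0.42. For Puma-/- against WT the medians were 0.60 over B lymphoid, 0.44 over mast and basophil, 0.39 over stroma and endothelium and 0.35 over neutrophil markers. They were 0.29 over T and NK cell and over progenitor, -0.23 over monocyte and macrophage and -0.41 over erythroid markers. In both comparisons 0 genes of these lists passed the adjusted threshold, and none was at 0 counts. The part of these cells in the Tert level was not tested. In such bulk samples, fewer cells that express a gene and less RNA per cell cannot be told apart.

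The bases before the Tert start are shown because Tert was the least abundant protein-coding member. The 250 bases at chr13:73626661-73626910 (GRCm38, plus strand, from the RefSeq promoter table of build GRCm38.p6) hold the GC box, GGGCGG or its reverse CCGCCC, at 2 places, in capitals.
Tert upstream: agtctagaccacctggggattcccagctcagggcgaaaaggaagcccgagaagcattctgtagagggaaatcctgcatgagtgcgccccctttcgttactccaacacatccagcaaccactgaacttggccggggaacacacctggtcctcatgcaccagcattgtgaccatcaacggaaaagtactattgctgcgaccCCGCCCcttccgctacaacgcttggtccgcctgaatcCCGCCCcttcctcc
Windows from 250 bases before to 50 after the start matched for 6 members, all but Terc and Naf1. The GC box was found in the windows of Tert (2 matches) and Nhp2 (3 matches), and in 35.7% of 32851 windows of all genes. The E-box CACGTG was found in 1 of the 2 windows of Wrap53 and in 7.15% of all windows, and the ETS core CCGGAA or its reverse in those of Gar1 (2 matches) and Nhp2 (1 match) and in 14.9% of all. Both strands were searched, and a match is a description of the letters only.

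Dkc1 encodes dyskerin, the pseudouridine synthase of the particle. It lies on chromosome X from 75095854 to 75109777 on the plus strand, and 1.09% of its 4121 exon bases are shared with the antisense gene Mpp1. Its levels were 144, 133 and 137 CPM in WT, 116, 138, 135 and 119 CPM in Puma-/-, 128, 170, 141 and 140 CPM in G3 mTerc-/-Puma+/+, and 122, 144 and 144 CPM in replicates 1, 3 and 4 labelled G3 mTerc-/-Puma-/-. The highest was G3 mTerc-/-Puma+/+ replicate 2, and the genotypes overlapped. The level varied little, with a coefficient of variation of 0.106, at the 16.1st percentile of the genes tested. In G3 mTerc-/-Puma+/+ against Puma-/- it differed by 0.19 on the log2 scale (SE 0.0935; edgeR, adjusted p = 0.321), and 3 of 4 libraries were above every Puma-/- library. Xist, which female cells express from the inactive X chromosome, was at 464 to 865 CPM in the Puma-/- libraries and at 0.176 to 88.6 CPM in G3 mTerc-/-Puma+/+, and the 2 ranges did not overlap. With the log2 CPM of Xist as a covariate the difference was 0.096 (SE 0.103; edgeR, adjusted p = 0.837). Because Xist is fully separated between these genotypes, the parts of genotype and of Xist in the difference cannot be told apart by this fit. The same holds for every value with the Xist covariate in this comparison.

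Nop10 and Nhp2 encode the small proteins that complete the core with dyskerin. Nop10 lies on chromosome 2 from 112261926 to 112263269 on the plus strand. Its levels were 108, 113 and 104 CPM in WT, 88.1, 94.3, 129 and 96.1 CPM in Puma-/-, 98.5, 135, 110 and 113 CPM in G3 mTerc-/-Puma+/+, and 87.5, 119 and 123 CPM in replicates 1, 3 and 4 labelled G3 mTerc-/-Puma-/-. In 3 of 4 Puma-/- libraries Nop10 was below every WT library, and in replicate 3 it was above all of them.

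Nhp2 lies on chromosome 11 from 51619735 to 51623714 on the plus strand, with 3.84% of its 1146 exon bases shared with the antisense gene Rmnd5b. Its levels were 105, 116 and 106 CPM in WT, 88.8, 95.9, 124 and 88.0 CPM in Puma-/-, 105, 173, 107 and 101 CPM in G3 mTerc-/-Puma+/+, and 89.5, 119 and 143 CPM in replicates 1, 3 and 4 labelled G3 mTerc-/-Puma-/-. The same library of G3 mTerc-/-Puma+/+, replicate 2, was again the highest, 1.96 times the lowest, and the other 3 lay in the range of WT or just below it. Nhp2 had the lowest p of the 7 tested members when those labelled G3 mTerc-/-Puma-/- (117 CPM on average) were set against Puma-/- (99.3 CPM), with a log2 difference of 0.24 (SE 0.196; edgeR, adjusted p = 0.798). Leaving out libraries of either group moved this value, to 0.070 without replicate 4 and 0.40 without replicate 1 of the former, and to 0.37 without replicate 3 of the latter.

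Gar1, which joins the particle when assembly is complete, lies on chromosome 3 from 129824912 to 129831396 on the minus strand. Its levels were 48.8, 55.9 and 53.7 CPM in WT, 48.3, 56.4, 63.0 and 50.5 CPM in Puma-/-, 48.9, 73.8, 53.1 and 49.8 CPM in G3 mTerc-/-Puma+/+, and 44.4, 51.5 and 58.4 CPM in replicates 1, 3 and 4 labelled G3 mTerc-/-Puma-/-. Each genotype overlapped every other. Gar1 had the lowest p of the interaction, the difference between the change with mTerc loss in the Puma-/- and the Puma+/+ background as labelled, at a log2 value of -0.18 (SE 0.204; edgeR, adjusted p = 0.999). It was -0.019 without G3 mTerc-/-Puma+/+ replicate 2 and ran from -0.28 to -0.079 on leaving out each other library.

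Naf1, the assembly factor, lies on chromosome 8 from 66860217 to 66890564 on the plus strand. Its levels were 20.6, 19.0 and 19.7 CPM in WT, 16.8, 19.0, 19.0 and 19.4 CPM in Puma-/-, 17.5, 30.5, 22.3 and 21.1 CPM in G3 mTerc-/-Puma+/+, and 18.4, 20.8 and 19.4 CPM in replicates 1, 3 and 4 labelled G3 mTerc-/-Puma-/-. In G3 mTerc-/-Puma+/+, 3 of 4 libraries were above every WT and every Puma-/- library, and replicate 1 was inside the Puma-/- range. Its log2 fold change there against Puma-/- was 0.30 (SE 0.134, 95% interval 0.013 to 0.59), with an unadjusted p of 0.0416 and an edgeR adjusted p of 0.270. This was the only unadjusted p under 0.05 among the 7 tested members in all 8 comparisons, and 17.1% of all genes tested had such a p in that comparison. Without G3 mTerc-/-Puma+/+ replicate 2 it was 0.14, and with the Xist covariate also 0.14 (SE 0.140; edgeR, adjusted p = 0.831). Xist did not overlap between these genotypes, so genotype and Xist cannot be told apart in the latter fit. With those labelled G3 mTerc-/-Puma-/- set against G3 mTerc-/-Puma+/+, Naf1 differed by -0.23 (SE 0.145; edgeR, adjusted p = 0.899), and by -0.063 without that library.

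Wrap53 was the steadiest member. It lies on chromosome 11 from 69561758 to 69580255 on the minus strand, head to head with Trp53, the gene of p53. Its levels were 27.8, 30.0 and 28.5 CPM in WT, 26.6, 27.0, 31.0 and 27.8 CPM in Puma-/-, 28.3, 31.2, 28.002 and 30.0 CPM in G3 mTerc-/-Puma+/+, and 28.3, 26.4 and 32.3 CPM in replicates 1, 3 and 4 labelled G3 mTerc-/-Puma-/-. The highest library exceeded the lowest by 1.22 times, and the coefficient of variation was 0.105. The 103 bases between both starts, at chr11:69580256-69580358 (GRCm38, minus strand, RefSeq promoter table), are shown because the genes share no exon base but face each other across them. None of the 3 motifs above occurs in them.
Wrap53 to Trp53: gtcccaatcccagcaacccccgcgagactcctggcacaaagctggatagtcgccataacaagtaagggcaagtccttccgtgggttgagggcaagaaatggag
Trp53 was at 189 to 230 CPM in the 14 libraries, and its log2 CPM had a Pearson r of 0.50 with that of Wrap53, at the 87.1st percentile of all genes. That value is a description over 14 libraries, which share depth, cell composition and genotype.

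No protein-coding member passed the test in any comparison. For Puma-/- against WT, 0 of 7 had an adjusted p under 0.05 (0.079% of all genes tested did), 0 had an unadjusted p under 0.05 (10.1% of all), and 2 of 7 fold changes were above 0 (50.9% of all), with a median of -0.085 on the log2 scale beside 0.0048 for all genes. For G3 mTerc-/-Puma+/+ against WT, 0 of 7 passed (0.0369% of all genes), 0 at an unadjusted p under 0.05 (3.86%), and all 7 fold changes were above 0 (54.5% of all), with a median of 0.095 beside 0.018. Without replicate 2 of G3 mTerc-/-Puma+/+, 2 of 7 were above 0 and the median was -0.014. The direction of these small differences therefore rested on that library. For G3 mTerc-/-Puma+/+ against Puma-/-, 0 of 7 passed (0.801% of all genes), 1 at an unadjusted p under 0.05, with 6 of 7 above 0 (49.9% of all) and a median of 0.17, or 5 of 7 and 0.076 without replicate 2.

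For the 3 libraries labelled G3 mTerc-/-Puma-/- against WT, 0 of 7 passed (0.0632% of all genes), 0 at an unadjusted p under 0.05 (5.45%), and 4 of 7 were above 0 (50% of all) with a median of 0.012. Against Puma-/-, 0 of 7 passed (0.306% of all genes), 0 at an unadjusted p under 0.05 (8.42%), and 6 of 7 were above 0 (52% of all) with a median of 0.075. Against G3 mTerc-/-Puma+/+, 0 of 7 passed (0.0738% of all genes), 0 at an unadjusted p under 0.05 (6.22%), with 1 of 7 above 0 (46.3% of all) and a median of -0.055, which became 5 of 7 and 0.017 without replicate 2 of the latter. In the interaction 0 of 7 passed (0.0527% of all genes), 0 at an unadjusted p under 0.05 (4.93%), and 4 of 7 were above 0 (48.8% of all). These comparisons share libraries and are not independent of each other. In none of the 6 pairwise comparisons did the libraries of any of the 7 tested members lie all above or all below the other genotype. Some genes did so in each. The share of all genes that lay above and the share below was 5.49% and 4.21% for Puma-/- against WT, 1.95% and 2.12% for G3 mTerc-/-Puma+/+ against WT, and 4.94% and 5.84% for it against Puma-/-. For those labelled G3 mTerc-/-Puma-/- the shares were 5.33% and 3.2% against WT, 3.98% and 5.56% against Puma-/-, and 3.15% and 2.4% against G3 mTerc-/-Puma+/+. DESeq2 and limma-voom also gave 0 adjusted p under 0.05 for the 7 genes.

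Both Puma backgrounds were then joined. The average of both G3 genotypes, as labelled, was compared with the average of WT and Puma-/-, and 0 of 7 members passed (0.263% of all genes did), 0 at an unadjusted p under 0.05 (7.76% of all). None of the 7 was separated between all mTerc-/- and all mTerc+/+ libraries, as 0.079% of all genes were in each direction. All 7 fold changes were above 0, as were 53.1% of all genes, and their median was 0.086 on the log2 scale beside 0.010 for all genes. Without G3 mTerc-/-Puma+/+ replicate 2, 6 of 7 were above 0 and the median was 0.048. Nhp2 had the largest estimate, 14.5% more with a 95% interval from -6.89% to 40.9% (0.20 on the log2 scale, SE 0.139; edgeR, adjusted p = 0.775). On the log2 scale it was 0.084 without G3 mTerc-/-Puma+/+ replicate 2, 0.11 without replicate 4 labelled G3 mTerc-/-Puma-/- and 0.095 with the Xist covariate.

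In the same comparison the estimate for Naf1 was 10.3% more, with an interval from -5.32% to 28.4%. Dkc1 was at 6.11% more, with an interval from -4.60% to 18.0%, and Nop10 at 6.89% more, from -8.33% to 24.6%. The interval of Gar1 ran from -13.8% to 16.8% around 0.317%, and that of Wrap53 from -6.16% to 12.3% around 2.65%. Wrap53 had the narrowest of the 7 intervals. Tert had the widest, from -22.4% to 42.7% around 5.24%. With the log2 CPM of Xist as a covariate the log2 fold changes ran from -0.067 (Gar1) to 0.12 (Tert), and that of Dkc1 was 0.037 (SE 0.0722; edgeR, adjusted p = 0.999).

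**Figure D3:**
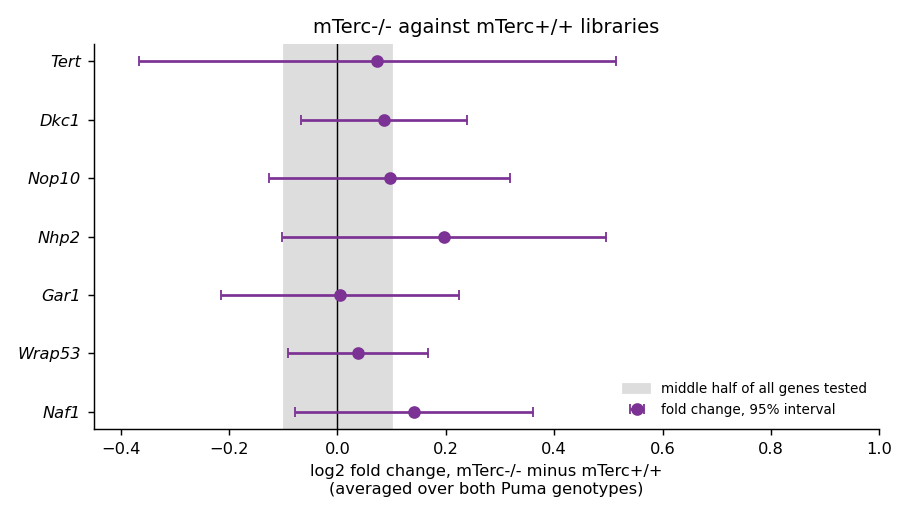
Log2 fold change of the 7 tested members between mTerc-/- and mTerc+/+ libraries, averaged over both Puma genotypes, with 95% intervals from edgeR's fit, and a grey band from the lower to the upper quartile of all 18983 genes. Every interval includes 0, and it is widest for Tert and narrowest for Wrap53.

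Single libraries stood out in several members together. G3 mTerc-/-Puma+/+ replicate 2 was the highest of the 14 libraries for Dkc1, Nop10, Nhp2, Gar1 and Naf1, and replicate 1 labelled G3 mTerc-/-Puma-/- was the lowest for Nop10 and Gar1. The Pearson r of log2 CPM over the 14 libraries was 0.90 between Nop10 and Nhp2, 0.85 between Nhp2 and Gar1, 0.85 between Dkc1 and Naf1, 0.84 between Dkc1 and Nhp2 and 0.80 between Dkc1 and Nop10. By ranks (Spearman) the same pairs were at 0.89, 0.74, 0.75, 0.70 and 0.69. Among these 5 genes the lowest rank correlation was 0.33, between Gar1 and Naf1, where the Pearson r was 0.67. For Tert the Pearson r was negative, from -0.085 (Naf1) to -0.48 (Wrap53) against the 6 other tested members. These values describe 14 points that share library, depth and genotype. In the library where those 5 genes were highest, the 6 progenitor markers summed to 12646 CPM, the highest of the 14. Mpo dominates that sum, with a median of 9865 CPM over the 15 libraries beside 18.3 to 205 CPM for the other progenitor markers. Markers of T and NK cells (16.3 CPM), stroma and endothelium (291 CPM), erythroid cells (18.4 CPM) and mast cells and basophils (517 CPM) were each at the lowest sum of the 14. Neutrophil (1846 CPM), B lymphoid (15.3 CPM) and cell cycle (5038 CPM) sums of this library were the highest of its group. Its monocyte and macrophage sum (1536 CPM) was the lowest of the group. Its Xist level was 0.176 CPM beside 40.2 to 88.6 CPM in the other 3 libraries of its group. The part of cell composition and of the Xist difference in the shared pattern was not tested.

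**Figure D4:**
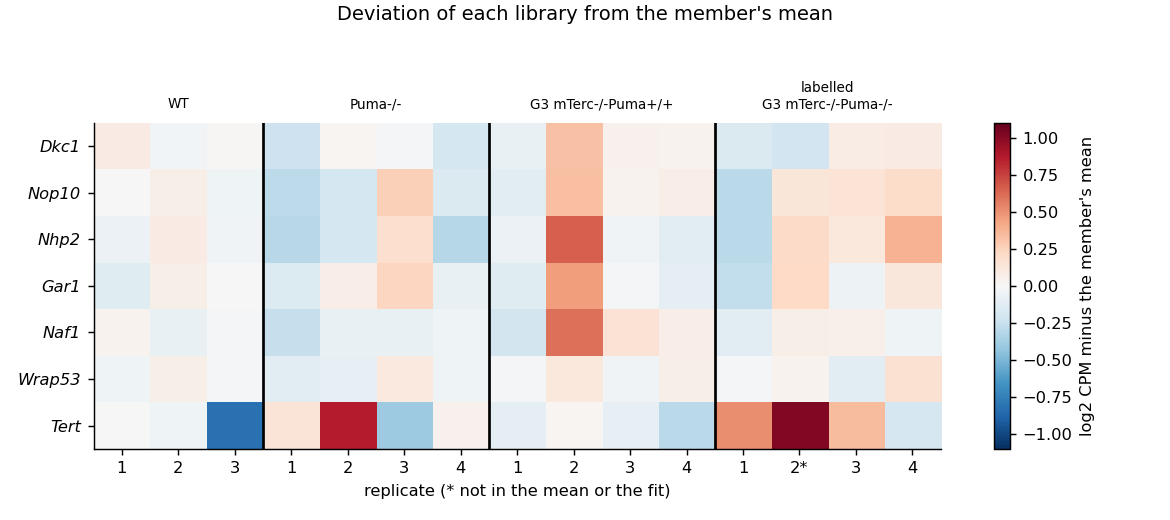
Log2 CPM of the 7 tested members in each of the 15 libraries minus the member's mean over the 14 libraries of the fit (red above, blue below), with replicate numbers under each genotype. Replicate 2 of G3 mTerc-/-Puma+/+ is red for Dkc1, Nop10, Nhp2, Gar1 and Naf1, and the row of Tert has its own pattern.

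The genes whose pattern was most like that of each member were taken from the 18983 genes tested, by the highest Pearson r of log2 CPM over the 14 libraries. For Dkc1 they were Nop58 (r = 0.97), a core protein of the box C/D particles, Rsl1d1 (0.97) and Gtpbp4 (0.96). For Gar1 they included Gpatch4 (0.95) and Ruvbl1 (0.95), an ATPase that takes part in the assembly of these particles. For Naf1 they were Senp3 (0.95), Ptcd3 (0.95) and Gclm (0.95), with Spearman rank correlations of 0.76, 0.89 and 0.75. Nop10 ran with Ppil3 (0.97), Uchl3 (0.97) and Sdhaf1 (0.97), and Nhp2 with Mrps28 (0.98), Ppp1r14b (0.98) and Atp5g1 (0.98), where Mrps28 is a mitochondrial ribosomal protein and Atp5g1 a subunit of ATP synthase. For Wrap53 the values of r were lower, with Saal1 (0.88), Dnal4 (0.88) and Sars (0.88). For Tert they were Gm13091 (0.91), ENSMUSG00000094614 (0.91), for which no symbol was found, and Shank1 (0.88). The highest of 18983 correlations over 14 libraries tends to be high, and these values carry no test.

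The genes around the particle, taken from lists chosen by function, gave 1 call in all comparisons. Of all genes tested, 53.1% were above 0 in the averaged comparison and 0.263% passed, with a median of 0.010 on the log2 scale. Of 14 genes of telomerase RNA maturation, 0 passed in any of the 8 comparisons, and in the averaged comparison 11 of 14 were above 0 with a median of 0.034 on the log2 scale. Those with the highest levels were Nolc1 (0.11), Ruvbl2 (0.12), Exosc10 (0.0023), a nuclease of the nuclear exosome, and Zcchc8 (-0.0051), which targets transcripts to it. Of 10 genes of shelterin and CST, which cover telomeres and fill in their ends, 0 passed, with a median of -0.0068 and values of 0.0072 for Ctc1, -0.014 for Terf2, -0.024 for Acd and -0.15 for Pot1b. Of 12 regulators of Tert, 0 passed, with a median of 0.015. Among them Myc, an activator of Tert, was at 0.015 (SE 0.0875), Ctcf at -0.0082, Sp1 at 0.048 and Sp3 at 0.039.

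The chaperones that fold telomerase subunits stood highest among these lists. The 11 genes were the 8 subunits of the TRiC ring, which folds TCAB1, 2 forms of HSP90 and Ptges3, the p23 co-chaperone. All had fold changes above 0 in the averaged comparison, as did 53.1% of all genes. Their median was 0.13 on the log2 scale beside 0.010 for all genes. At an unadjusted p under 0.05 there was 1 of 11 (7.76% of all genes), and 0 passed the test. In that comparison Hsp90ab1 was at 0.091, Hsp90aa1 at 0.25, Cct5 at 0.11 and Cct2 at 0.095. In G3 mTerc-/-Puma+/+ against Puma-/- their median was 0.23, 6 of 11 had an unadjusted p under 0.05 all with a higher level, as 8.19% of all genes did, and 0 passed after adjustment. The cell cycle list was near this in the same comparison, with 5 of 11 at such a p, all higher, and a median of 0.15. These genotypes differ in both mTerc and Puma, and their Xist ranges did not overlap. The parts of mTerc, Puma and Xist in these differences cannot be told apart. The 4 core proteins of the box C/D particles, the sister class of guide particles, were all above 0 in the averaged comparison, with a median of 0.11 and values of 0.095 for Nop56, 0.055 for Fbl, 0.12 for Nop58 and 0.16 for Snu13, and 0 passed. Of 14 genes of ribosome biogenesis 13 were above 0 (53.1% of all genes) and 0 passed (0.263% of all). Their median was 0.088, with values of 0.14 for Ncl, 0.23 for Npm1, 0.014 for Ubtf and 0.016 for Tcof1.

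The only gene of these lists that passed in any comparison was Ccnb1, the cyclin of entry into mitosis, in the cell cycle list. It was higher in G3 mTerc-/-Puma+/+ than in Puma-/-, by 0.44 on the log2 scale (SE 0.0886; edgeR, adjusted p = 0.0431), as 1 of 11 genes of that list (0.237% of all genes were called higher). The call was kept under 8 of 23 alternatives, with adjusted p from 0.000519 to 0.232, and lost among others with all 15 libraries (log2 difference 0.45, adjusted p = 0.0792), with the Xist covariate (0.33, adjusted p = 0.232) and without G3 mTerc-/-Puma+/+ replicate 2 (0.35, adjusted p = 0.0582). Xist did not overlap between G3 mTerc-/-Puma+/+ and Puma-/-, so the covariate fit cannot tell genotype and Xist apart. In the averaged comparison all 11 cell cycle genes were above 0 (53.1% of all genes), with a median of 0.066, and 0 passed (0.263% of all). There Mki67 was at 0.0038, Top2a at 0.071, Mcm6 at 0.049 and Mcm5 at 0.062.

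**Figure D5:**
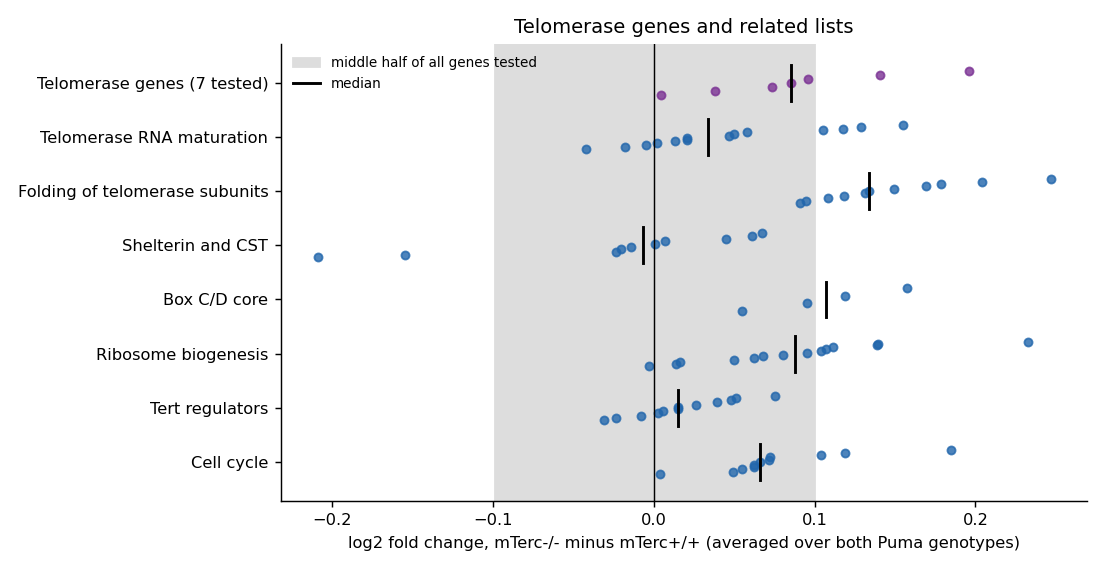
Log2 fold change between mTerc-/- and mTerc+/+ libraries, averaged over both Puma genotypes, for the 7 tested members and the genes of 7 related lists, with a bar at each median and a grey band from the lower to the upper quartile of all genes tested. All points of the chaperone list lie above 0, and the shelterin and CST list is centred at -0.0068.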

How the data were processed

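RNA sequencing libraries were prepared by the authors from poly(A)-selected RNA with a stranded kit, trimmed with Trimmomatic 0.38 and counted per gene with STAR 2.5.2b against GRCm38, and whole-number counts per gene were deposited with no normalization. The annotation release and the strand setting are not given in the sources used here. Groups came from the sample titles, and nothing states that replicates are separate animals, so p-values measure the spread between these samples. For 14 libraries the tests used edgeR 4.0.16 under R 4.3.3 (TMM factors 0.926 to 1.07, filterByExpr, a fit of 4 genotypes, quasi-likelihood test, Benjamini-Hochberg adjustment over 18983 genes, threshold 0.05). Log2 CPM used a prior count of 2. Alternatives were all 15 libraries, library size alone, DESeq2 1.42.0, limma-voom 3.58.1, other filters, a replicate block, an Xist covariate, fits of 2 genotypes and leaving out each library. Lengths by first-numbered transcript were added after seeing the data.

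The members, the related lists and the marker lists were chosen with earlier results of these data known. Named genes were all members, genes of the related lists that passed the test, otherwise up to 4 per list with the highest mean CPM, and the 3 genes most like each tested member, of which 1 is not reported here. The calculations were checked on simulated counts. Replicates differed beyond counting error, with a chi-square of 41.8 to 298 for each gene on average, so no library was a copy of another. An observed count of 0 allows a mean of up to 3 counts, at most 0.0292 CPM.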

Additional observations from a re-analysis of the deposited data

Results flagged for a closer look

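In groups of 4 libraries, each member was checked for a library far from the others (Dixon's test), over 24 groups, of which chance marks about 1 in 20. In G3 mTerc-/-Puma+/+, replicate 2 stood apart for Nhp2 (172.8 CPM, next 106.5 CPM, with 0.928 of the group's range between them) and for Gar1 (73.8 CPM, next 53.1 CPM, 0.829 of the range). Among the 4 libraries labelled G3 mTerc-/-Puma-/-, replicate 1 stood apart for Nop10 with 87.5 CPM, below the next library at 118 CPM (0.841 of the range). For Terc, G3 mTerc-/-Puma+/+ replicate 1 was marked at 0 CPM beside 1 count in each of the other 3 libraries, a difference of 1 count.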

How the results depend on the processing

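For the 14 member fold changes reported one by one, 302 of 314 refits kept the sign and the side of the threshold, 12 changed sign and 0 passed the threshold. The sign changes were in the averaged comparison, whose fold change of Gar1 became -0.0082 with limma-voom, -0.0015 with at least 1 CPM in 3 libraries and -0.067 with the Xist covariate. Leaving out each library gave log2 values of -0.076 to 0.053 for Gar1, -0.038 to 0.21 for Tert and -0.0047 to 0.070 for Wrap53. Over all 56 pairs of a tested member and a comparison, 82 of 1274 refits changed sign, in 32 pairs, and the lowest adjusted p was 0.0966 (Naf1, G3 mTerc-/-Puma+/+ against Puma-/-, without G3 mTerc-/-Puma+/+ replicate 1). The members called in the averaged comparison rose from 0 to 1 with no count filter, and ranged from 0 to 1 over libraries left out, since Terc was then among the genes kept (adjusted p = 0.00798 with no count filter). The Terc difference stayed at exact permutation p of 0.00143 to 0.00429 on leaving out any library and 0.000408 with all 15.

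Counts over all genes depended on the method: 15 genes in Puma-/- against WT became 136 with DESeq2, 7 in G3 mTerc-/-Puma+/+ against WT became 46, 152 in G3 mTerc-/-Puma+/+ against Puma-/- became 996, and 50 in the averaged comparison became 252. With the Xist covariate the 152 became 18, in a comparison where Xist and genotype are fully separated and cannot be told apart. Replicate numbers are shared between genotypes, but same-numbered libraries did not deviate together (r from -0.253 to 0.175, median 0.0203). A replicate block moved the 152 to 43, the 58 between Puma-/- and those labelled G3 mTerc-/-Puma-/- to 21 and the 50 to 23, and called 0 members. Depth limits Terc, at 17 counts or fewer, and Tert, at 91 to 338 counts.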

Other observations

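Among libraries labelled G3 mTerc-/-Puma-/-, replicate 2, which entered no mean, had the highest Tert level of the 15 libraries, at 2.91 CPM from 338 counts, and a Dkc1 level of 118 CPM near the lower end of the range. Its other members were at 118 CPM (Nop10), 127 CPM (Nhp2), 62.5 CPM (Gar1), 29.6 CPM (Wrap53) and 20.9 CPM (Naf1), inside the range of the other 14. With all 15 libraries, 0 of the 7 tested members passed in any comparison.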
